A study of Mus musculus with 18 samples.

Results

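The estradiol (E2) response of the uterus after doxorubicin (DOX) was read from 6 of the 18 libraries of the series: the 3 DOX E2 libraries, set against the 3 DOX OIL libraries. All came from whole uteri of ovariectomized adult CD-1 mice, an outbred stock, so both groups lacked ovarian hormones and both carried DOX, an anthracycline that intercalates into DNA and poisons topoisomerase II. The DOX E2 animals then received E2, the main ovarian estrogen, and the DOX OIL animals received oil, its carrier. A parallel arm of 3 PBS E2 and 3 PBS OIL libraries, from ovariectomized animals given phosphate-buffered saline (PBS) in place of DOX, served to test whether the responses of the arms differed. The labels give no dose, no interval between DOX, hormone and collection, and they do not state that each library is its own animal. A p-value here therefore covers only the spread among these samples. Total RNA was sequenced and deposited as counts for 22238 gene symbols, of which 15494 had enough counts to be tested.

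In the uterus E2 acts through estrogen receptor alpha, a nuclear receptor present in stroma, epithelium and muscle. Its classic course in the ovariectomized rodent begins with water uptake, hyperaemia and early response genes, passes through a large build-up of ribosomes and protein, and leads to division of the luminal epithelium, which stromal growth factors such as IGF1 help to drive. Estrogens also drive keratin-rich, stratified programmes in the epithelia of the lower tract. DOX is known for DNA double-strand breaks and p53 activity, so genes of those pathways are described beside the hormone's own targets.

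The 6 libraries held 18042357 to 28122299 counts each. Replicates differed by more than sampling noise: chi-square over its degrees of freedom was 17.5 to 28.1 between DOX E2 pairs and 20.4 to 30.8 between DOX OIL pairs. On the first principal component of the 1000 most variable genes, which held 95% of the variance of the 6 libraries, the DOX E2 libraries lay at 46.0 to 51.3 and the DOX OIL libraries at -50.9 to -47.4. The markers of epithelium, stroma and smooth muscle, which are the main tissues of the uterus, were present in all 6 libraries, and markers of ovary were near or at 0 (Fshr, the receptor for follicle-stimulating hormone, had no count). Fat did not follow the groups evenly. The 7 adipocyte markers summed to 1.13 to 99.7 CPM (counts scaled to a common library size with TMM factors) in the DOX E2 libraries, where replicates 1 and 2 were near 0 and replicate 3 was at the top, and to 82.5 to 334 CPM in the DOX OIL libraries. In whole uterus, fewer cells of a type and less RNA per cell cannot be told apart.

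**Figure D1:**
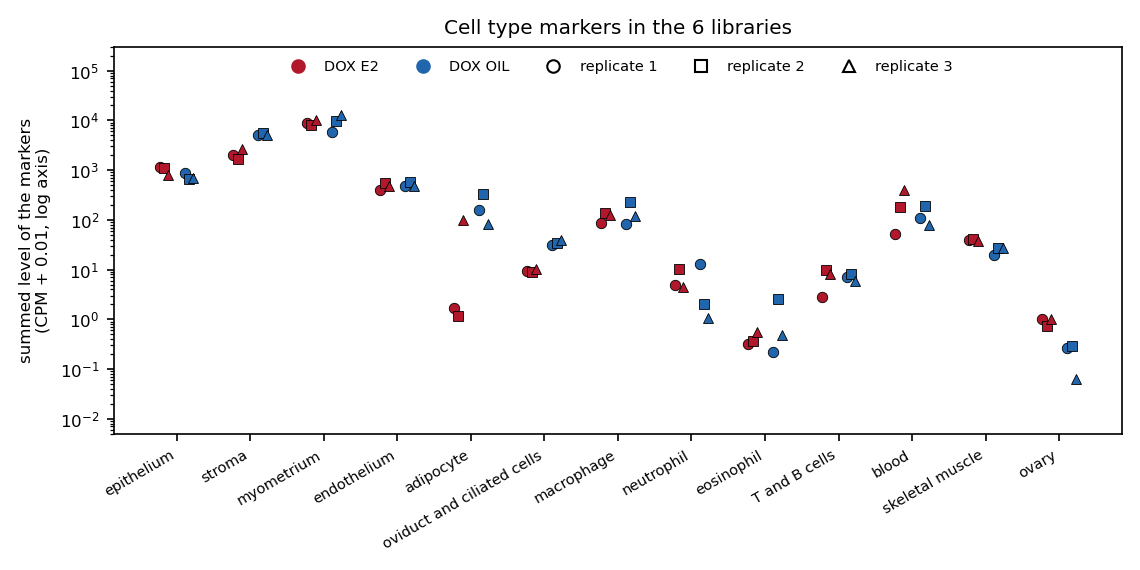
Summed levels of cell type markers in each library. The vertical axis is the sum of CPM over the markers of a type, plus 0.01, on a log axis; the DOX E2 libraries stand left and the DOX OIL libraries right within each type, and the symbol shows the replicate. The sums of stromal and of ciliated markers are lower in all 3 DOX E2 libraries, and that of adipocyte markers is near 0 in DOX E2 replicates 1 and 2.

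E2 altered most of the measured transcriptome after DOX. Of 15494 genes, 11254 (72.6%) passed edgeR's quasi-likelihood test at a Benjamini-Hochberg adjusted p under 0.05, which is what "called" means below. Of all genes tested, 5442 (35.1%) were higher and 5812 (37.5%) lower with E2. At an unadjusted p under 0.05 there were 11552, and in 11738 genes the groups did not overlap. Because so many genes were called, a 2-fold change is the measure used for groups of genes: 2515 genes (16.2%) were called and at least 2-fold higher, and 3595 (23.2%) were called and at least 2-fold lower. The median log2 fold change (DOX E2 minus DOX OIL) over all genes was -0.08 and the lower and upper deciles were -1.98 and 1.41. Scaling by the upper quartile instead placed this median at -0.30 with 4422 genes higher and 7024 lower, and scaling by library size alone placed it at -0.39 with 4004 higher and 7481 lower. A gene near 0 can thus change sign with the scaling. Counts of list members given below without a size are of changes that were called and at least 2-fold.

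Falls and rises differed in size. Falls outnumbered rises at 4-fold (735 higher, 1476 lower) and 8-fold (296 higher, 510 lower), and the order turned at 32-fold (82 higher, 39 lower) and 64-fold (48 higher, 12 lower). Rises were more frequent among genes of high mean level. That level was taken over all 18 libraries, E2 libraries included. A rise can thus lift a gene's class and a fall can lower it, so the split below is built in to an unknown degree. In the least abundant of 3 equal classes of genes, 669 rose and 1866 fell at least 2-fold, and in the most abundant class 1052 rose and 601 fell. The genes that rose at least 2-fold held 39.5% of the scaled counts in DOX E2 uteri and 11.8% in DOX OIL uteri, and those that fell at least 2-fold held 5.01% in DOX E2 uteri and 16.1% in DOX OIL uteri.

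**Figure D2:**
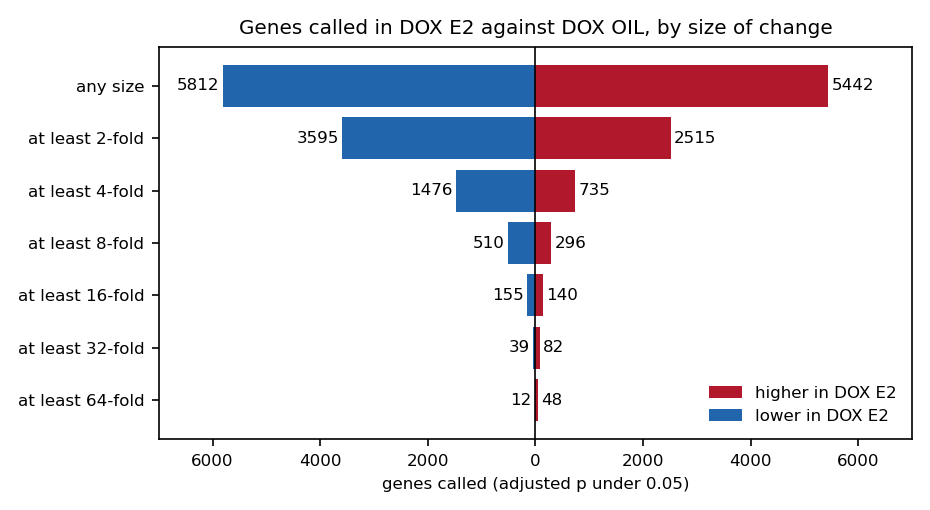
Number of genes called in DOX E2 against DOX OIL uteri at each minimum fold change. Bars to the right count genes higher in DOX E2 and bars to the left genes lower in DOX E2; falls are more numerous up to 16-fold and rises at 32-fold and beyond.

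A minority of genes stayed level. In 2103 genes (13.6%) the 95% confidence interval of the log2 fold change lay within 0.5 of 0 on both sides, and 541 of these were called. The set depends on the scaling. The most abundant of them were the elongation factors Eef1a1 (-0.02 ± 0.12, SE) and Eef2 (0.04 ± 0.11), the ribosomal proteins Rpl4 (0.01 ± 0.12) and Rpl7 (-0.16 ± 0.14), the RNA helicase Ddx5 (0.03 ± 0.08) and the ribosome scaffold Gnb2l1 (0.12 ± 0.13). With scaling by library size alone Eef1a1 (-0.34), Eef2 (-0.28), Rpl4 (-0.31), Rpl7 (-0.48) and Ddx5 (-0.28) were called lower. With upper-quartile scaling Rpl7 (-0.39) and Ddx5 (-0.19) were. Eef1a1, the most abundant messenger outside the mitochondrial genome, had 10590, 9054 and 9252 CPM in the DOX E2 libraries, against 9788, 9666 and 9886 CPM in the DOX OIL libraries, and the groups overlapped. Among the other most abundant genes in DOX E2 uteri, the actin crosslinker Flna stood at 0.59 ± 0.18, cytoplasmic actin Actb at 1.36 ± 0.11, the constitutive heat shock protein Hspa8 at 2.73 ± 0.19, the lysosomal protease Ctsb at 2.27 ± 0.29, Hsp90ab1 at 1.27 ± 0.10, the matrix protein Aebp1 at 1.6 ± 0.18 and collagen VI chain Col6a3 at 3.05 ± 0.30. The growth-linked Tpt1 stood at -0.48 ± 0.14.

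The highest-fold rises were in genes almost silent without hormone. Syt6, a synaptotagmin of exocytosis, had 23.6, 34 and 14.2 CPM in the DOX E2 libraries, against 0.0415, 0.0459 and 0 CPM in the DOX OIL libraries. It had 2 counts in all in the DOX OIL group, and its ratio of 753 has a 95% counting interval of 208 to 6220. Krt83, a hard keratin of hair, had 61.2, 48.4 and 76.2 CPM in DOX E2 and 0.0415, 0.0459 and 0.211 CPM in DOX OIL uteri, and Aqp8, a water channel of epithelia, had 41.4, 22 and 17.3 CPM in DOX E2 and 0.0829, 0.0917 and 0 CPM in DOX OIL uteri. Adamts4, a protease that cleaves aggrecan and versican, reached 249, 308 and 431 CPM in the DOX E2 libraries, against 1.62, 1.93 and 1.21 CPM in the DOX OIL libraries, a log2 fold change of 7.69 ± 0.85 (SE, n = 3 per group). Ptpn5, a tyrosine phosphatase, rose by 7.6 ± 0.52, and Ngfr, the low-affinity neurotrophin receptor, by 6.58 ± 0.50. The kallikrein Klk1 (7.19 ± 0.68), the cornified envelope protein Sprr2f (6.82 ± 1.2), Mylk2 (7.43 ± 0.94), a myosin light chain kinase of skeletal muscle, Sectm1b (7.28 ± 0.59), Crtac1 (6.96 ± 0.60), a matrix protein of cartilage, and the chondroitin sulfotransferase Chst13 (6.83 ± 0.68) complete the 12 highest-fold rises among genes whose log2 CPM averaged 1 or more. Klk1 and Sprr2f belong to clusters of near-identical genes, and the sources used here do not say how reads shared between copies were counted.

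The steepest falls were in genes that E2 reduced to a few CPM or less. Pik3ip1, which encodes an inhibitor of phosphatidylinositol 3-kinase (PI3K), had 3.0, 2.32 and 1.64 CPM in the DOX E2 libraries, against 142, 136 and 147 CPM in the DOX OIL libraries, a log2 fold change of -5.95 ± 0.32. Ypel4 had 0.723, 0.309 and 0.493 CPM in DOX E2 and 38, 34.7 and 43.9 CPM in DOX OIL uteri, and Bmf, a BH3-only activator of cell death, had 4.54, 2.06 and 2.22 CPM in DOX E2 and 97.3, 107 and 120.3 CPM in DOX OIL uteri. Like the rises above, these falls were named only where the groups did not overlap, which held for 11738 of the 15494 genes tested. Other steep falls were those of Lrrtm1 (-6.55 ± 0.99), a synaptic adhesion protein, Fn3k (-6.52 ± 0.42), a kinase that removes sugar adducts from protein, Gpr81 (-6.25 ± 0.72), the lactate receptor of fat cells, Adck3 (-5.51 ± 0.33), a mitochondrial kinase of coenzyme Q synthesis, the lipid transporter Abca8a (-5.38 ± 0.37), the inositol transporter Slc5a11 (-5.37 ± 0.63), and Ccdc28a (-5.06 ± 0.27). With a score of adipocyte markers as a covariate, chosen after the data were seen, Gpr81 stood at -5.45.

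Genes that E2 is known to induce in the mouse uterus were mostly higher. Of 44 tested members of that list, 31 rose and 4 fell at least 2-fold, with a median of 1.95. The members were chosen with earlier results of these data known, so the count describes the list and tests nothing. Igf1, the stromal growth factor that drives epithelial division, had 1047, 893 and 844 CPM in the DOX E2 libraries, against 71.2, 68.8 and 70.5 CPM in the DOX OIL libraries. The groups were widely separated, with a log2 fold change of 3.73 ± 0.24 (adjusted p = 2.28e-09, n = 3 per group). Pgr, the progesterone receptor, had 468, 392 and 462 CPM in the DOX E2 libraries, against 63.8, 44.8 and 56.8 CPM in the DOX OIL libraries (3.0 ± 0.21), and Greb1, an estrogen receptor cofactor, had 469, 419 and 444 CPM in the DOX E2 libraries, against 38.2, 37.6 and 45.6 CPM in the DOX OIL libraries (3.46 ± 0.20). Inhbb, the activin beta B subunit, was higher still relative to its base, with 1532, 1156 and 1568 CPM in DOX E2 and 23.8, 26.8 and 25.9 CPM in DOX OIL uteri. Ramp3, which couples the adrenomedullin receptor (6.2 ± 0.34), Padi2, a protein-citrullinating enzyme (5.25 ± 0.35), and Mad2l1, a spindle checkpoint protein (4.97 ± 0.48), rose too. Areg, an EGF receptor ligand, was barely detected, with 20 counts in the DOX E2 group and 1 in the DOX OIL group, a ratio of 20.6 with a counting interval of 3.29 to 853. Ltf, which encodes lactoferrin, the best-known secreted product of estrogen-exposed mouse epithelium, was among the 7 tested members that were not called. It had 368, 412 and 239.8 CPM in the DOX E2 libraries, against 171, 123 and 654 CPM in the DOX OIL libraries, with DOX OIL replicate 3 above all the others, and its log2 fold change was 0.11 ± 0.73 (adjusted p = 0.904). The value was 1.21 without DOX OIL replicate 3, and it was negative without DOX OIL replicate 1 or 2 or DOX E2 replicate 2.

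**Figure D3:**
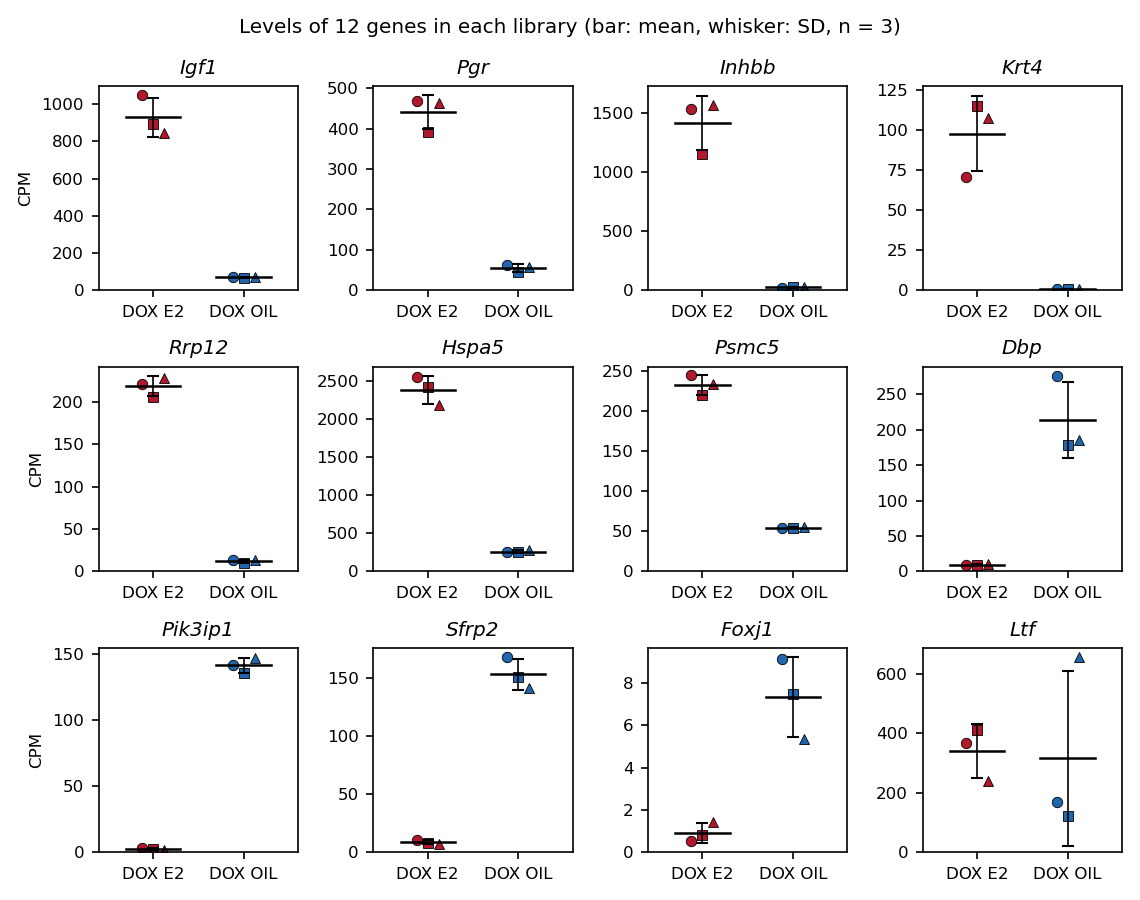
CPM of 12 genes in each of the 3 DOX E2 libraries (left) and 3 DOX OIL libraries (right), on linear axes from 0; the horizontal bar is the mean and the whisker the SD. The groups do not overlap in any panel but that of Ltf, where DOX OIL replicate 3 at 654 CPM lies above all DOX E2 libraries.

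Structural genes of stratified epithelium stood out in the epithelial programme. Of 28 tested keratin and cornified envelope genes, 19 rose and 1 fell at least 2-fold (median 2.35). Krt4, a keratin of moist stratified epithelium, had 71.1, 115 and 108 CPM in the DOX E2 libraries, against 0.995, 1.1 and 1.05 CPM in the DOX OIL libraries. Sprr1a (6.52 ± 1.25) and Sprr2g (5.11 ± 1.22), which are crosslinked into the envelope, and Tgm1, the transglutaminase that crosslinks them (4.37 ± 0.31), rose as well. Simple-epithelium keratins rose less than Krt4 or did not rise. Krt7 had 253, 253 and 180.4 CPM in DOX E2 and 29.6, 24 and 33.9 CPM in DOX OIL uteri. Krt8 had 287, 251 and 179 CPM in DOX E2 and 134, 113 and 107 CPM in DOX OIL uteri, and Krt19 174, 172 and 128 against 110, 96.3 and 106 CPM. Krt18 overlapped between groups, with 175, 162 and 150 CPM in DOX E2 and 201, 157 and 144 CPM in DOX OIL uteri. Summed markers of uterine epithelium were 815 to 1170 CPM in DOX E2 libraries and 671 to 873 CPM in DOX OIL libraries, ranges that overlap.

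Secretory, protease and transport genes moved in both directions. Of 17 luminal secretory and antimicrobial genes, 5 (29.4%) rose and 1 (5.88%) fell at least 2-fold, against 16.2% and 23.2% of all genes. The iron-siderophore binder Lcn2 had 315, 414 and 233 CPM in the DOX E2 libraries, against 29.9, 20.6 and 26.7 CPM in the DOX OIL libraries, and the surface mucins Muc4 (2.02 ± 0.31) and Muc1 (1.77 ± 0.25) rose, with clusterin (Clu) at 1.3 ± 0.30. The median of that list was 0.11, and it was 0 when libraries were scaled by the upper quartile or by library size. Among 22 epithelial proteases and inhibitors, 8 (36.4%) rose and 1 (4.55%) fell at least 2-fold. The tryptase-like Prss22 (3.62 ± 0.85) and the membrane protease Tmprss4 (1.74 ± 0.29) were among those that rose. Of 30 genes for water and ion transport, 9 (30%) rose and 7 (23.3%) fell at least 2-fold, the falls at the 23.2% of all genes. The secretory water channel Aqp5 had 56.6, 51 and 59.4 CPM in DOX E2 and 6.51, 4.54 and 5.0 CPM in DOX OIL uteri, and carbonic anhydrase Car12 rose by 3.07 ± 0.36 while Aqp11, a channel of inner membranes, fell (-2.12 ± 0.28). Gap and tight junction genes divided by member: Gjb2 (4.37 ± 0.42) and Gja1 (2.48 ± 0.27), which encode connexins, rose, and the claudins Cldn1 (-3.59 ± 0.48) and Cldn8 (-2.22 ± 0.33) fell.

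Genes of the protein-making apparatus rose together. All 39 tested ribosome biogenesis genes were called higher, 35 of them at least 2-fold, against 16.2% of all genes, with a median of 2.19 and a lowest value of 0.56. Rrp12, which exports ribosomal subunits from the nucleus, had 221, 206 and 229 CPM in the DOX E2 libraries, against 13.1, 9.82 and 12.9 CPM in the DOX OIL libraries, and no library of a group came near those of the other. The nucleolar helicase Ddx21 (3.52 ± 0.20), the box C/D core protein Nop58 (3.1 ± 0.17), Bop1 (3.0 ± 0.16) and Grwd1 (2.97 ± 0.18), both of large-subunit assembly, followed. Of 23 cytosolic tRNA synthetase genes, 20 rose at least 2-fold and 0 fell that far (median 1.88), led by the alanine enzyme Aars with 455, 458 and 529.7 CPM in DOX E2 and 56, 58.4 and 54.3 CPM in DOX OIL uteri. Of 30 translation factors, 19 rose and 1 fell at least 2-fold (median 1.42). The mRNA helicase Eif4a1 had 2327, 2181 and 2364 CPM in the DOX E2 libraries, against 348, 314 and 311 CPM in the DOX OIL libraries, and Eif2s2 (2.55 ± 0.18) and Eif5a (2.4 ± 0.13) rose too.

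The ribosomal proteins themselves did not follow. Of 44 tested cytosolic ribosomal protein genes, 0 changed 2-fold, 10 were called higher and 2 lower, and the values ran from -0.39 to 0.85. The highest was Rps2, with 851, 709 and 672 CPM in the DOX E2 libraries, against 420.3, 439 and 383 CPM in the DOX OIL libraries. Their median of 0.04 turned to -0.18 with upper-quartile scaling and -0.27 with scaling by library size, so no direction is given for the family. On each of these scalings the median stayed close to that of all genes (-0.08, -0.30 and -0.39).

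Protein folding and export genes rose together. Of 35 endoplasmic reticulum (ER) chaperone and unfolded protein response genes, 22 rose and 1 fell at least 2-fold (31 called higher and 1 lower at any size; median 1.29). Hspa5, the master ER chaperone BiP, had 2542, 2413 and 2184 CPM in the DOX E2 libraries, against 253, 249 and 279.5 CPM in the DOX OIL libraries, a log2 fold change of 3.19 ± 0.23 (adjusted p = 5.15e-09). Its co-workers Hyou1 (3.4 ± 0.21) and Sdf2l1 (3.09 ± 0.38) and the secreted stress proteins Manf (3.27 ± 0.25) and Creld2 (3.14 ± 0.20) rose to a like degree. Of 37 genes of protein translocation and N-glycosylation, 26 rose and 0 fell at least 2-fold (median 1.10), with the translocon subunit Sec61a1 at 737, 719 and 685 CPM in DOX E2 and 174, 157 and 165 CPM in DOX OIL uteri and the coat protein Sec13 at 2.51 ± 0.14. Scaling by library size left 11 of those 26. Cytosolic and mitochondrial chaperones gave 25 of 31 at least 2-fold higher and 0 lower, including Hsph1 (3.13 ± 0.30), the inducible Hsp90aa1 (2.61 ± 0.18), Hspd1 (2.4 ± 0.16) and the chaperonin subunit Cct6a (2.38 ± 0.12). Of 30 proteasome subunits, 23 rose and 1 fell at least 2-fold (13 rose with scaling by library size), and the ATPase subunit Psmc5 had 246, 220.5 and 234 CPM in the DOX E2 libraries, against 54, 54.4 and 55.1 CPM in the DOX OIL libraries.

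The ER chaperone promoters were searched for a sequence element, which some of them held. The ER stress response element, CCAAT and CCACG separated by 9 bases (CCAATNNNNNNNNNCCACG), is bound by ATF6 together with NF-Y. It was searched on both strands in the window from 250 bases before to 50 bases after the start of each gene in RefSeq (GRCm38.p6), a table that holds 10677 of the 15494 genes tested. It matched 37 of 27025 promoters (0.137%) and 9 of the 29 ER list promoters in the table (31.0%). Of the genes that rose at least 2-fold it matched 9 of 1772 (0.508%), of those that fell at least 2-fold 3 of 2425 (0.124%), and of those not called 5 of 2823 (0.177%). All of the 9 rising genes but Hnrnpa3 belong to the ER list, so their share is not separate from that of the list. The stretches of the 5 matching list genes with the highest fold changes follow, 5′ to 3′ on the gene's own strand, with the element in capitals. It reads CGTGG to ATTGG where it lies on the opposite strand.
Hspa5: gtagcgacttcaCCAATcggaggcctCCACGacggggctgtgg
Creld2: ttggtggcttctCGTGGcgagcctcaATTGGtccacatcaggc
Pdia6: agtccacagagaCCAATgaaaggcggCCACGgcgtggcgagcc
Calr: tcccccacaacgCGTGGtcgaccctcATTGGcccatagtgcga
Dnajc3: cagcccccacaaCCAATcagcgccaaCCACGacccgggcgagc
The first lies at chr2:34772013-34772055, with the first base of the element 65 bases before the start, and the others at chr15:88819508-88819550, chr12:17266479-17266521, chr8:84847063-84847105 and chr14:118937815-118937857. Pdia6 (2.08) encodes a disulfide isomerase, Calr (1.98) the lectin chaperone calreticulin and Dnajc3 (1.89) a co-chaperone of BiP. A further match was in Derl3, a factor of ER-associated degradation, which fell (-1.45 ± 0.34). A consensus estrogen response element (GGTCANNNTGACC, the same on both strands) was found in this short window of 20 of 27025 promoters (0.074%) and in 1 tested gene, Pde10a, a phosphodiesterase with a log2 fold change of 1.76. None of the 17 promoters in the table among the 24 highest-fold rises and steepest falls held either element. A match is a description of the letters and not a site of binding.

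Genes that make nucleotides, sterols and other precursors were also higher. Of 33 nucleotide and one-carbon genes, 19 rose and 1 fell at least 2-fold (median 1.22). Mthfd2, the mitochondrial folate enzyme, had 75.1, 72.2 and 112 CPM in DOX E2 and 5.6, 5.83 and 4.95 CPM in DOX OIL uteri, and the nucleotide enzymes Nme1 (3.28 ± 0.20), Ctps (3.0 ± 0.19) and Umps (2.1 ± 0.12) rose. Of 29 genes of cholesterol synthesis and uptake, 17 rose and 5 fell (median 1.67), with Idi1 at 171, 117 and 151 CPM in DOX E2 and 13.1, 9.63 and 10.2 CPM in DOX OIL uteri and with Sqle (3.4 ± 0.21) and Cyp51 (3.1 ± 0.18) close behind. The neutral amino acid carrier Slc7a5 had 404, 376 and 440.2 CPM in the DOX E2 libraries, against 32.8, 24.5 and 28.4 CPM in the DOX OIL libraries, while the glutamate carrier Slc1a3 (-2.67 ± 0.36), the arginine carrier Slc7a2 (-2.59 ± 0.26) and Slc6a15 (-3.89 ± 0.42) fell. Among glycolytic genes Hk2 (2.88 ± 0.27) and Ldha (2.21 ± 0.15) rose, and Pfkm (-3.07 ± 0.18) and Pdk1 (-2.49 ± 0.18), which restrains pyruvate oxidation, fell. Of 40 nuclear oxidative phosphorylation genes, 30 were called higher but 6 at least 2-fold (median 0.64), with Cycs, which encodes cytochrome c, at 3.19 ± 0.17. None of the 13 mitochondrially encoded genes changed 2-fold.

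Cell cycle genes did not move as 1 group. Of 40 replication licensing and fork genes, 11 rose and 2 fell at least 2-fold (median 0.21; 5 rose, and the median was -0.11, with scaling by library size). Pcna, the sliding clamp, had 182, 145 and 164 CPM in the DOX E2 libraries, against 56.4, 48.9 and 47 CPM in the DOX OIL libraries, and the licensing factors Orc2 (1.66 ± 0.13), Cdc6 (1.47 ± 0.43), Mcm5 (1.45 ± 0.20) and Mcm2 (1.27 ± 0.21) rose. Mitotic genes did not: of 40, 1 (2.5%) rose and 5 (12.5%) fell at least 2-fold, shares below the 16.2% and 23.2% of all genes. Of the 40, 29 were not called, the median was -0.24, and 8 fell without DOX E2 replicate 1. The gene that rose, Mad2l1, has been given above. Mki67, the marker of cycling cells, had 21.5, 7.17 and 14.3 CPM in the DOX E2 libraries, against 29.6, 24.7 and 13.1 CPM in the DOX OIL libraries, overlapping between groups (-0.65 ± 0.45, adjusted p = 0.203). The mitotic genes Cdc25b (-2.71 ± 0.22), Pttg1 (-2.29 ± 0.20) and Nusap1 (-1.41 ± 0.37) fell. Of 28 G1 regulators, 8 (28.6%) rose and 6 (21.4%) fell, the falls near the 23.2% of all genes. Without DOX E2 replicate 1 or without DOX OIL replicate 3, 5 rose. Myc (1.17 ± 0.19) rose, Ccnd1, cyclin D1, stood at 0.32 ± 0.26 (adjusted p = 0.287), and the brakes divided: Cdkn1a, p21, rose to 172, 206 and 206 CPM in the DOX E2 libraries, against 47.8, 63.9 and 25.5 CPM in the DOX OIL libraries, while Cdkn1b, p27, fell to 42.6, 46.6 and 46.1 CPM in the DOX E2 libraries, against 202, 226 and 226 CPM in the DOX OIL libraries. Rbl2, the pocket protein of quiescent cells (-2.18 ± 0.16), and Cdkn2c (-2.12 ± 0.23) fell. Of 11 tested replication-dependent histones, 8 fell at least 2-fold, though messages without a poly(A) tail and near-identical copies make this family uncertain.

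Single genes of the DNA damage response and of DOX handling changed in both directions. The p53 targets had the largest share of rises of these lists, 40.6%, against 16.2% of all genes. Of 32 p53 targets, 13 rose and 6 fell at least 2-fold (10 fell with scaling by library size; median 0.66). Besides Cdkn1a, the stress cytokine Gdf15 had 17.9, 21.9 and 35.9 CPM in DOX E2 and 1.08, 1.33 and 0.526 CPM in DOX OIL uteri, Gadd45a rose by 3.18 ± 0.28 and Aen, a nuclease, by 2.92 ± 0.21. Mdm2, the ligase that degrades p53, had 102, 106 and 110.5 CPM in the DOX E2 libraries, against 75.4, 76.6 and 59.2 CPM in the DOX OIL libraries, a smaller rise of 0.59 ± 0.10. Sesn1 (-3.41 ± 0.16), a brake on mTORC1, and Trp53inp1 (-2.56 ± 0.19) fell. Of 38 damage signalling and repair genes, 5 rose and 5 fell at least 2-fold (13.2% each), shares below the 16.2% and 23.2% of all genes: Lig4, the ligase of end joining, rose (2.09 ± 0.16), and the kinases Chek2 (-3.21 ± 0.30) and Atm (-1.54 ± 0.24) and the excision repair protein Xpa (-1.72 ± 0.13) fell. Of the direct targets of DOX, Top2a, topoisomerase II alpha of cycling cells, had 50.3, 16.2 and 31.7 CPM in the DOX E2 libraries, against 22.8, 19.6 and 11.6 CPM in the DOX OIL libraries. The groups overlapped, and its call (0.86 ± 0.37, adjusted p = 0.046) ended in 11 of the alternatives, among them the fits without DOX E2 replicate 1 (0.40) or 3, or DOX OIL replicate 2 or 3. Top2b, topoisomerase II beta of resting cells, had 176, 149 and 162 CPM in DOX E2 and 142, 149 and 163 CPM in DOX OIL uteri, which overlapped (0.10 ± 0.10). Abcb1a, the P-glycoprotein pump that exports DOX, fell to 18.2, 16.7 and 19 CPM in the DOX E2 libraries, against 188, 188 and 174 CPM in the DOX OIL libraries. In the same list of DOX targets and pumps, of which 5 of 24 rose (20.8%) and 7 fell (29.2%) at least 2-fold, near the shares of all genes, the efflux pump Abcc5 fell (-1.98 ± 0.12), and Nos3, a nitric oxide synthase that can reduce DOX, rose (2.69 ± 0.24). Of 36 metallothionein and redox defence genes, 11 (30.6%) rose and 6 (16.7%) fell at least 2-fold. The metal-binding Mt2 (2.78 ± 0.23) and Mt1 (1.88 ± 0.22), sulfiredoxin Srxn1 (2.17 ± 0.24) and thioredoxin reductase Txnrd1 (1.92 ± 0.12) rose.

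Early response genes rose, and brakes on growth signalling fell. Of 34 immediate early genes, 20 rose and 0 fell at least 2-fold (median 1.51). Fos had 81.3, 94.2 and 195 CPM in the DOX E2 libraries, against 16.9, 5.92 and 3.53 CPM in the DOX OIL libraries, with DOX E2 replicate 3 and DOX OIL replicate 1 at the top of their groups but no overlap, and Egr1 had the same order (394, 554 and 1220 CPM in DOX E2, against 138, 40.5 and 39.1 CPM in DOX OIL libraries). Fosl1 (5.56 ± 0.90), Ier2 (2.57 ± 0.24) and Maff (2.57 ± 0.32) rose. Of 28 brakes on PI3K, mTORC1 and growth, 13 fell and 3 rose at least 2-fold. Deptor, an inhibitor of mTOR, had 7.85, 9.95 and 10.1 CPM in DOX E2 and 84.5, 99.8 and 135 CPM in DOX OIL uteri, and Foxo4, a transcription factor restrained by insulin signalling, 6.82, 7.32 and 9.08 CPM in DOX E2 and 69, 88.3 and 86.8 CPM in DOX OIL uteri. Of 31 apoptosis genes, 10 (32.3%) fell and 3 (9.68%) rose at least 2-fold, against 23.2% and 16.2% of all genes. Bcl2, which protects cells, stood at -1.6 ± 0.12, and the caspases Casp6 (-2.07 ± 0.14) and Casp2 (-1.7 ± 0.12) were lower beside Bmf. In the IGF family, Igf1 was the sole member of 17 to rise, and 6 fell at least 2-fold: the receptor Igf1r had 18.9, 21.5 and 19.8 CPM in the DOX E2 libraries, against 57.2, 59.3 and 64.5 CPM in the DOX OIL libraries, and the adaptor Irs2 (-3.4 ± 0.20), the binding-protein protease Pappa (-2.4 ± 0.33) and its inhibitor Stc1 (-2.36 ± 0.21) fell.

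Ligands, receptors and antagonists of the paracrine pathways moved in both directions. At least 2-fold, 38.9% of the EGF list rose and 22.2% fell, and 36.8% of the retinoic acid list rose and 36.8% fell. The shares were 23.1% and 15.4% for hedgehog, 22.2% and 25% for activin and BMP, and 21.7% and 30.4% for prostaglandin genes. Of all genes 16.2% rose and 23.2% fell. The members named below are mostly the largest changes and do not stand for their lists. Among EGF family members the neuregulins Nrg2 (3.57 ± 0.22) and Nrg1 (2.12 ± 0.30) and Hbegf (1.96 ± 0.23) rose, as did Errfi1, a feedback inhibitor of the EGF receptor, with 745, 845 and 1031 CPM in DOX E2 and 97.1, 51 and 52.9 CPM in DOX OIL uteri. In the hedgehog pathway Dhh rose (2.97 ± 0.34), and the receptors Ptch1 (-2.14 ± 0.28) and Boc (-1.45 ± 0.10) fell. Ihh, the epithelial ligand, had 33.1, 30.8 and 19.5 CPM in the DOX E2 libraries, against 20.5, 10.1 and 9.58 CPM in the DOX OIL libraries, which overlapped, and its call (1.05 ± 0.40, adjusted p = 0.0287) ended in 7 of the alternatives, among them the fits without DOX E2 replicate 1 or 2, or DOX OIL replicate 2 or 3. Of 39 Wnt pathway genes, 14 (35.9%) fell and 6 (15.4%) rose at least 2-fold, against 23.2% and 16.2% of all genes. Wnt4 (2.88 ± 0.33) and Wnt7b (2.85 ± 0.45) rose, and Sfrp2, a secreted Wnt antagonist, fell to 10.5, 8.41 and 7.43 CPM in the DOX E2 libraries, against 168, 151 and 142 CPM in the DOX OIL libraries, with Wnt6 (-4.45 ± 0.59) and Rspo3 (-3.73 ± 0.33). The activin antagonist follistatin (Fst) rose by 4.13 ± 0.45 beside Inhbb, and the receptor Acvr2b (-3.11 ± 0.32) and Smad9 (-4.14 ± 0.35) fell. In prostaglandin metabolism the synthase Ptges had 212, 339.5 and 307 CPM in DOX E2 and 28.2, 21.5 and 25.7 CPM in DOX OIL uteri, while the degrading enzyme Hpgd (-3.16 ± 0.26) and the prostaglandin F receptor Ptgfr (-3.73 ± 0.25) fell. Aldh1a2, which makes retinoic acid, had 1018, 759 and 825 CPM in the DOX E2 libraries, against 48.1, 30.6 and 34.3 CPM in the DOX OIL libraries, and Cyp26b1, which degrades it, rose too (3.31 ± 0.63).

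**Figure D4:**
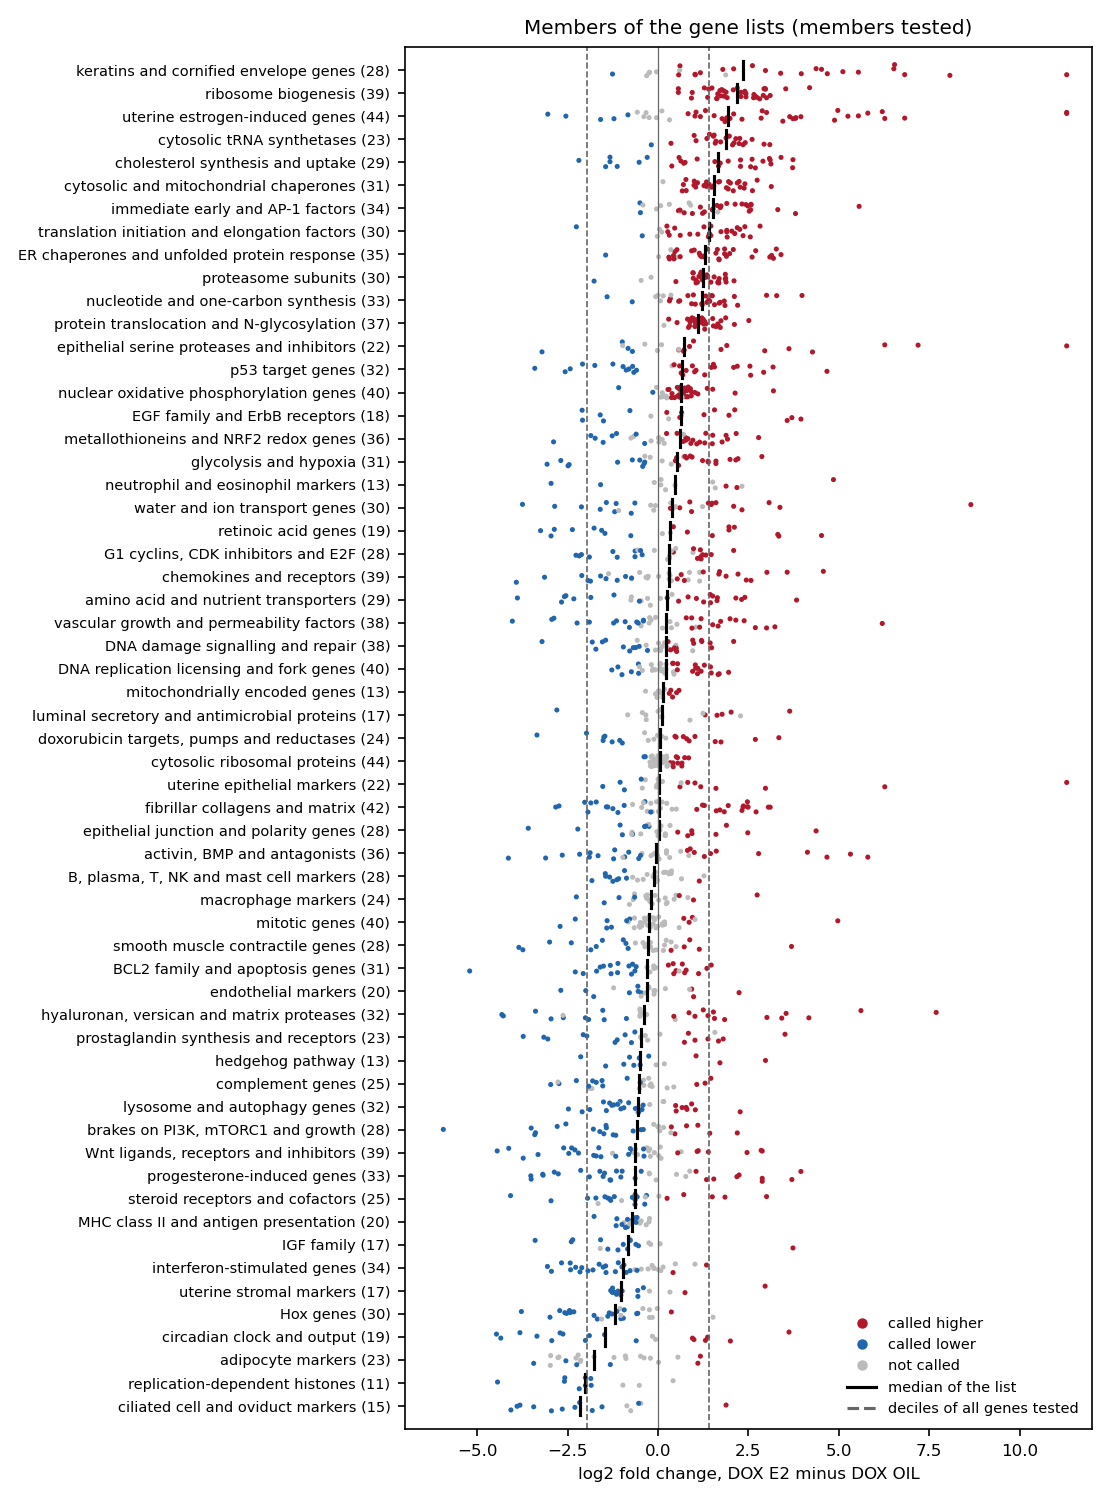
Log2 fold change (DOX E2 minus DOX OIL) of every tested member of the 59 gene lists, sorted by the list median (black bar); red points were called higher, blue points lower and grey points not called, and dashed lines mark the deciles of all 15494 genes. Keratins, ribosome biogenesis and estrogen-induced genes lead at the top, and ciliated cell markers, histones and adipocyte markers stand at the bottom.

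Most stromal markers were lower, and matrix genes moved in both directions. The 7 stromal markers summed to 1670 to 2630 CPM in DOX E2 libraries and 5050 to 5680 CPM in DOX OIL libraries. Dcn made up the largest part, with 1260, 973 and 1850 CPM in DOX E2 and 3740, 3830 and 3460 CPM in DOX OIL uteri. Hand2, Hoxa10, Nr2f2 and Col3a1 were lower without overlap. Pdgfra was lower by less (206, 201 and 228 against 274, 304 and 264 CPM), and Hoxa11 overlapped (99.7, 107 and 84.9 against 107, 99.9 and 137 CPM). Of 17 members of the wider stromal list, 9 fell and 1 rose at least 2-fold (median -1.03). The transcription factors Nr2f2 (-1.31 ± 0.15), Osr2 (-1.27 ± 0.20) and Meis2 (-1.26 ± 0.16) fell, and Twist2 rose (2.96 ± 0.20). Of 30 Hox genes, 16 fell and 0 rose at least 2-fold, Hoxc6 with the largest fall (-3.78 ± 0.39). Of 42 collagen and matrix genes, 16 (38.1%) rose and 10 (23.8%) fell, against 16.2% and 23.2% of all genes. Col6a2 (2.71 ± 0.22), Col6a3 and the provisional matrix protein Tnc, with 478, 529 and 452 CPM in DOX E2 and 47.5, 74.2 and 48.7 CPM in DOX OIL uteri, rose, while Col5a2 (-2.83 ± 0.25) and the crosslinker Loxl3 (-2.74 ± 0.20) fell. Has1, a hyaluronan synthase, rose by 5.61 ± 0.59, the link protein Hapln1 fell (-4.32 ± 0.45), and the metalloproteases parted, with Mmp19 higher (4.17 ± 0.45) and Mmp11 lower (-4.28 ± 0.24).

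Genes of muscle, vessels and cilia are given with their markers. Of 28 smooth muscle genes, 7 (25%) fell at least 2-fold, near the 23.2% of all genes, and 2 rose (4 without DOX OIL replicate 3 and 1 without DOX OIL replicate 1). Oxtr, the oxytocin receptor, had 599.7, 440.3 and 528 CPM in the DOX E2 libraries, against 23.8, 49.6 and 48.3 CPM in the DOX OIL libraries, and the phospholamban gene Pln (-3.85 ± 0.49), Smtn (-2.4 ± 0.35) and Synm (-1.86 ± 0.30) fell. DOX OIL replicate 3 was the highest in these 3, and the summed smooth muscle markers were 8160 to 10000 CPM in DOX E2 and 5970 to 13000 CPM in DOX OIL libraries. Contractile markers parted within that sum. Des had 1650, 1770 and 1850 CPM in DOX E2 and 547, 823 and 1020 CPM in DOX OIL uteri. Myh11 had 1390, 1260 and 1890 against 1900, 3050 and 3910 CPM, and Acta2, Actg2, Cnn1 and Tagln overlapped between groups. At any size, 5 members of the smooth muscle list were called higher and 10 lower. In 38 vascular growth genes, 12 (31.6%) rose and 7 (18.4%) fell, against 16.2% and 23.2% of all genes. Their median of 0.23 turned to -0.09 with scaling by library size. Placental growth factor Pgf (3.23 ± 0.37) and Angpt4 (3.0 ± 0.52) were higher, and Angpt1 (-4.03 ± 0.32) and Figf (-2.94 ± 0.34) lower. Of 15 ciliated cell and oviduct markers, 10 fell and 1 rose at least 2-fold. Foxj1, the master factor of motile cilia, had 0.516, 0.825 and 1.44 CPM in DOX E2 and 9.12, 7.48 and 5.37 CPM in DOX OIL uteri, and Rfx2 8.68, 9.64 and 10.3 CPM in DOX E2 and 56.4, 60.2 and 63.2 CPM in DOX OIL uteri. The Wdr96 and Ccdc39 genes of motile cilia fell by 4.07 and 3.82 on the log2 scale. Of the 23 genes of the adipocyte list (median -1.77), 4 were called at least 2-fold lower, and 13 without DOX E2 replicate 3. Lep (leptin), Plin1 and Cidec were at 0 in DOX E2 replicates 1 and 2.

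Steroid receptors and clock genes had more falls than rises. Of 25 steroid receptors and cofactors, 9 (36%) fell and 3 (12%) rose at least 2-fold, against 23.2% and 16.2% of all genes. Esr1, estrogen receptor alpha, had 492, 356 and 434 CPM in the DOX E2 libraries, against 677, 646 and 671 CPM in the DOX OIL libraries, a fall of 0.64 on the log2 scale (adjusted p = 0.0013). The membrane receptor Gpr30 (-4.08 ± 0.47), the mineralocorticoid receptor Nr3c2 (-1.95 ± 0.23) and the vitamin D receptor Vdr (-1.72 ± 0.30) fell, and the corepressor Nrip1 rose (1.85 ± 0.17). Of 33 genes known to be induced by progesterone, 15 fell and 9 rose, with Zbtb16 (-3.52 ± 0.30) and Penk (-3.51 ± 0.28) lower and Wnt4 and Errfi1 higher. Of 19 clock genes, 10 (52.6%) fell and 4 (21.1%) rose at least 2-fold (median -1.48). Dbp, an output of the clock, had 9.71, 8.46 and 10.6 CPM in the DOX E2 libraries, against 275, 179 and 185 CPM in the DOX OIL libraries, Nr1d1, the repressor Rev-erb alpha, had 8.73, 9.03 and 14.5 CPM in the DOX E2 libraries, against 295, 162 and 204 CPM in the DOX OIL libraries and Per3 had 24.8, 28.7 and 31.5 CPM in the DOX E2 libraries, against 441, 382 and 379 CPM in the DOX OIL libraries. In each the 3 DOX E2 libraries were far below the DOX OIL libraries. Nfil3, which binds the same sites as Dbp with the opposite effect, rose (3.62 ± 0.36). The hour at which uteri were taken is not given in the labels.

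Interferon-stimulated genes were lower. Of 34 interferon-stimulated genes, 16 fell and 1 rose at least 2-fold (median -0.97). Rsad2, an antiviral protein, had 1.29, 2.68 and 4.68 CPM in the DOX E2 libraries, against 26.8, 24.3 and 22.2 CPM in the DOX OIL libraries, and the guanylate-binding proteins Gbp5 (-2.95 ± 0.42), Gbp7 (-2.67 ± 0.23) and Gbp3 (-2.42 ± 0.36) and Ifit3 (-2.43 ± 0.51) fell. Of 20 antigen presentation genes, 3 (15%) fell at least 2-fold, below the 23.2% of all genes, and 0 rose. That count was 5 without DOX E2 replicate 3 and 6 without DOX E2 replicate 2, DOX OIL replicate 1 or DOX OIL replicate 3. At any size 11 were called lower, including the immunoproteasome subunit Psmb9 (-1.77 ± 0.27) and Tap1 (-1.16 ± 0.27). The 4 macrophage markers summed to 86.5 to 138 CPM in DOX E2 libraries and 81.7 to 233 CPM in DOX OIL libraries, and of the 24 genes of the macrophage list 17 were not called. DOX OIL replicate 2 was the highest of the 6. Epx, which defines eosinophils, had no count in any of the 6 libraries. Chemokine genes rose and fell: Ccl7 (4.57 ± 0.67), Ccl2 (3.57 ± 0.55) and the scavenger receptor Cxcr7 (3.01 ± 0.37) rose, and Cxcr4 fell (-3.15 ± 0.32). The complement proteases C1s (-1.81 ± 0.26) and C1ra (-1.71 ± 0.23) fell. Of 32 lysosome and autophagy genes, 11 (34.4%) fell and 2 (6.25%) rose at least 2-fold, against 23.2% and 16.2% of all genes. Bnip3l (-2.48 ± 0.11), Gabarapl1 (-2.1 ± 0.14) and Ulk1 (-1.89 ± 0.09) fell.

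The response after DOX was set against that of the PBS arm by testing their difference, the interaction of E2 with DOX. In the PBS arm E2 changed 61.4% of the same genes. The responses differed in 3553 genes (22.9%), more positive after DOX in 1568 (10.1%) and more negative in 1985 (12.8%). In 2155 of the 3553, both arms were called in the same direction with the larger change after DOX, in 66 the larger change was in the PBS arm, and in 61 the directions were opposite. A further 1029 were called after DOX alone and 220 in the PBS arm alone. The count of more positive genes depended on single libraries: it was 2357 without PBS E2 replicate 1, and 844, 902, 1041 and 1041 without DOX E2 replicate 1, PBS E2 replicate 3, PBS E2 replicate 2 and DOX OIL replicate 2. PBS E2 replicate 1 is also the library with the most adipocyte marker counts, 2520 CPM, and the pairs that hold it differed more (chi-square over degrees of freedom 49.6 and 69.4) than PBS E2 replicates 2 and 3 (16.6). The PBS OIL pairs stood at 36.2 to 67.5. With the adipocyte score as a covariate, 1513 genes were more positive and 2020 more negative after DOX.

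Gene groups differed in how far the arms parted. Of 30 proteasome subunits, 25 were more positive after DOX and 0 more negative, with a median log2 fold change of 1.24 after DOX and 0.73 with PBS. Of 37 translocation and N-glycosylation genes, 26 were more positive (1.10 after DOX, 0.72 with PBS), and of 35 ER chaperone genes 23 were more positive and 1 more negative (1.29 after DOX, 0.74 with PBS). Leaving out any 1 library, these counts ran from 19 to 27, 24 to 30 and 20 to 27. The interaction of Hspa5 was 1.37 ± 0.30 on the log2 scale (adjusted p = 0.00494), with 1.82 in the PBS arm. Ribosome biogenesis had 10 of 39 more positive and 1 more negative (2.19 after DOX, 1.72 with PBS), a count that ran from 4 to 20 (without PBS E2 replicate 1). Cytosolic tRNA synthetases had 10 of 23 more positive, from 2 without PBS E2 replicate 3 to 19 without PBS E2 replicate 1. Cytosolic ribosomal proteins had 13 of 44, from 1 without DOX E2 replicate 1 to 34 without PBS OIL replicate 2, and 1 with the adipocyte score. Keratins had 8 of 28, from 2 without PBS E2 replicate 3 to 10. On the other side, 12 of 19 clock genes were more negative after DOX and 0 more positive, a count of 12 or 13 in every alternative. Dbp had an interaction of -3.3 ± 0.37 and fell by 1.17 in the PBS arm. Of 25 steroid receptors and cofactors, 9 were more negative, Esr1 among them (-0.86 ± 0.21, adjusted p = 0.0107; 0.22 in the PBS arm). Smooth muscle genes had 9 of 28 more negative, from 5 without DOX OIL replicate 3 to 13 when single libraries were left out.

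Interactions were ranked among genes called both there and in the E2 response after DOX. Their mean log2 CPM was 1 or more over the 6 DOX E2 and DOX OIL libraries, which high values in a single group can reach. Among the most negative were those of Lrrtm1 (-6.39 ± 1.22), Gpr81 (-3.78 ± 0.90, and -2.66 with the adipocyte score), Ypel4 (-3.74 ± 0.48) and Abca8a (-3.54 ± 0.45). Lrrtm1 had a log2 fold change of -0.16 in the PBS arm, so its steep fall was seen after DOX. The most positive were those of Syt6 (4.95 ± 1.18), the GABA carrier Slc6a13 (4.38 ± 1.02), the chitinase-like Chi3l1 (4.37 ± 1.47), Gdf6 (4.36 ± 0.90), a bone morphogenetic protein, the anion exchanger Slc26a9 (4.17 ± 1.13) and the scavenger receptor Msr1 (3.61 ± 1.25). Slc6a13 had 38.1, 40.9 and 23.2 CPM in the DOX E2 libraries, against 0.207, 0.55 and 0.737 CPM in the DOX OIL libraries in the DOX arm. The call of Msr1 ended in 17 alternatives, 10 of which left out 1 library, and that of Chi3l1 in 11, of which 8 left out 1 library. Without PBS OIL replicate 2 their values were 0.32 and 1.22. The call of Slc26a9 ended without PBS OIL replicate 1, where its value was 2.94. Mdm2 had a small positive interaction of 0.41 ± 0.14, a call that ended in 15 of the alternatives, 8 of which left out 1 library.

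**Figure D5:**
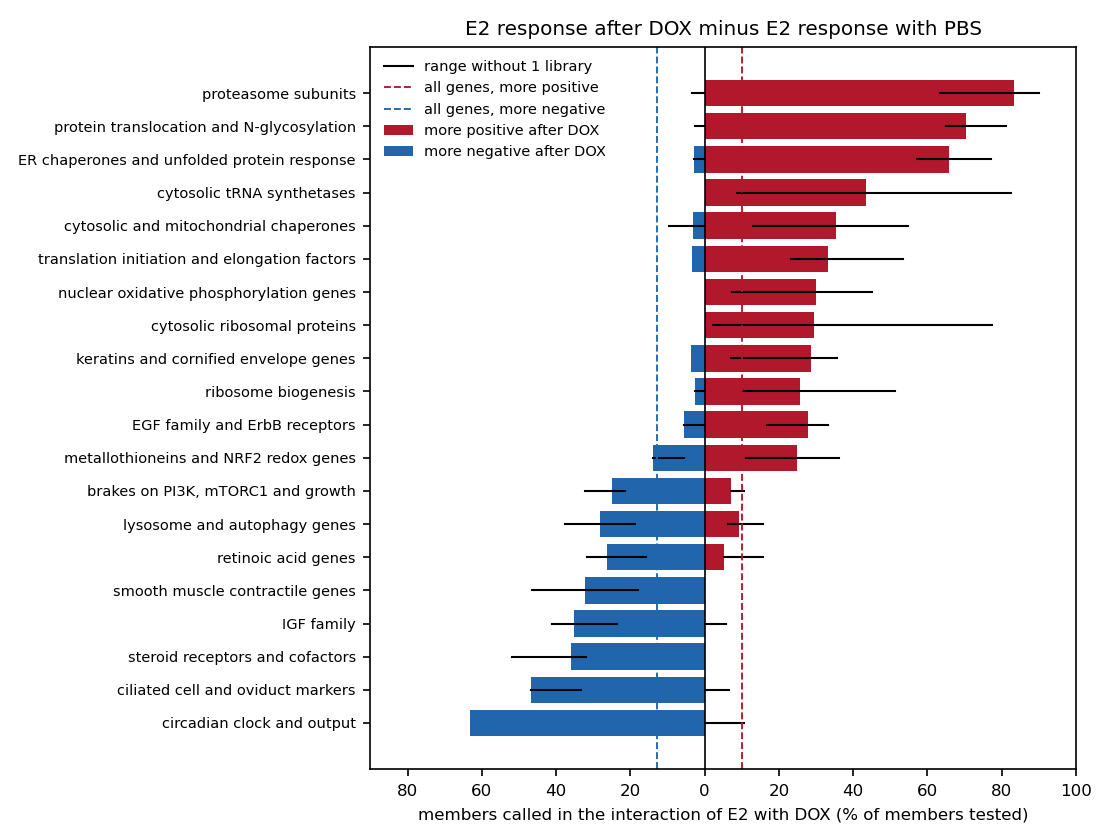
Share of the tested members of each list whose E2 response differed between arms, for the 20 lists with at least 25% of members on 1 side. Bars to the right count members more positive after DOX and bars to the left members more negative; black lines run from the lowest to the highest share when 1 library is left out, and dashed lines mark the shares of all genes, 10.1% and 12.8%. Proteasome, translocation and ER chaperone genes extend furthest right and clock genes furthest left, while the line of the ribosomal proteins spans 1 to 34 of 44 members.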

How the data were processed

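Total RNA of whole uterus was sequenced; per the labels, Trizol was used for extraction and a TruSeq kit for libraries. The authors deposited raw counts per gene symbol for 18 libraries, checked to be whole numbers, with 2904 of 22238 symbols at 0 throughout. The submitters' processing notes name build GRCm38, HISAT2 2.1.0, StringTie 1.3.4d, Trimmomatic 0.36, DESeq2 1.18.1, SAMtools 1.6, R 3.4.4 and FastQC 0.11.5. The counting tool, annotation, strand setting and treatment of multiply mapped reads: not given in the sources used here.

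In R 4.3.3, genes were filtered with filterByExpr, TMM factors (trimmed mean of M values) computed, and edgeR 4.0.16's robust quasi-likelihood model fitted to all 6 groups of 3 (12 residual degrees of freedom). Contrasts were tested by its F test with Benjamini-Hochberg adjustment over 15494 genes, with a threshold of 0.05. The SE is the log2 fold change over the square root of F. Depth, 18042357 to 28122299 counts in the 6 libraries, sets counting error only in intervals and bounds. The fit was also run on simulated counts in which few genes changed, which cannot judge the scaling where most genes change.

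Genes were described through 59 lists (1765 entries, 32 matched by an older symbol, 14 not in the table). The members and lists were chosen with earlier results of these data known. Named were the 12 steepest rises and falls (called, mean log2 CPM of at least 1, groups not overlapping), the 10 most abundant genes, up to 5 called members per list by size plus members of known role, 16 landmark genes, 6 interactions per direction and the 6 most abundant level genes. Pdia6, Calr, Dnajc3, Pde10a and Derl3 were named for their promoter matches after the values were seen, and the marker genes for their type. Some genes that these rules name are not reported here.

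Alternatives were other scalings, DESeq2 1.42.0, limma 3.58.1 voom with quality weights, other filters, a block for the replicate number, a test against a fold of 1.5, a fit to the 2 or 4 groups of a contrast, omission of ribosomal, mitochondrial and small RNA genes, and omission of each library. An adipocyte score as covariate was added after the data were seen. The 6 progesterone libraries entered the fit only.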

Additional observations from a re-analysis of the deposited data

Results flagged for a closer look

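The difference between the E2 response after DOX and that with PBS was tested as the interaction of E2 with DOX in edgeR's quasi-likelihood model, and the results below passed at an adjusted p under 0.05. It was more positive after DOX in 1568 genes and more negative in 1985. In log2 units (response after DOX minus response with PBS, n = 3 per group), the interaction was 4.95 for Syt6, 4.38 for Slc6a13, 4.37 for Chi3l1, 4.36 for Gdf6, 4.17 for Slc26a9 and 3.61 for Msr1. It was -6.39 for Lrrtm1, -3.78 for Gpr81, -3.74 for Ypel4 and -3.54 for Abca8a. Among the landmark genes it was 1.37 for Hspa5, 0.41 for Mdm2, -0.86 for Esr1 and -3.30 for Dbp. The call ended in 17 alternatives for Msr1, 15 for Mdm2, 11 for Chi3l1 and 1 for Slc26a9 (2.94 without PBS OIL replicate 1).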

How the results depend on the processing

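The counts of called genes and of 2-fold changes in the E2 response after DOX stayed within 1.5 times of the reported counts in all alternatives; a test against a fold of 1.5 gave 3239 higher and 3923 lower. The count of genes more positive after DOX in the interaction (1568) did not: it was 853 with scaling by library size, 2616 with limma voom, 880 when the 4 groups were fitted alone, and 844 (without DOX E2 replicate 1) to 2357 (without PBS E2 replicate 1) when single libraries were left out, with 902 without PBS E2 replicate 3 and 1041 without either DOX OIL replicate 2 or PBS E2 replicate 2. Deviations of same-numbered DOX E2 and DOX OIL libraries from their group means correlated at 0.256, 0.128 and -0.0653. Differently numbered libraries were not compared, so pairing was not tested. With a replicate block, 5440 genes were higher and 5807 lower, 2512 and 3590 of them at least 2-fold, and the interaction gave 1622 and 1991. Of 68 list counts of at least 5 genes changed 2-fold, 3 moved over 1.5 times without 1 library or with the adipocyte score: G1 regulators that rose (8, against 5 with the score or without DOX E2 replicate 1 or DOX OIL replicate 3), chemokine genes that fell (8, against 4 with the score or without DOX E2 replicate 1 or DOX OIL replicate 2) and mitotic genes that fell (5, against 8 with the score or without DOX E2 replicate 1).

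Of 3927 alternative values for 231 named genes, 3868 kept their direction and side of the threshold. Calls ended for Top2a, Ihh, Chi3l1, Flna and Msr1, Eef1a1 (-0.336) became called with library size and Rpl7 with upper-quartile scaling (-0.386) or library size (-0.478), and 31 values changed sign, all in genes near 0. With upper-quartile scaling and with library size alone these were Eef2 at -0.185 and -0.275, Ltf at -0.112 and -0.188, Top2b at -0.124 and -0.213, Rpl4 at -0.216 and -0.306, Ddx5 at -0.189 and -0.278, and Gnb2l1 at -0.0994 and -0.19. Of these, Ddx5 was also called lower on both scalings, and Eef2 and Rpl4 with library size. With the adipocyte score the values that changed sign were Eef2 at -0.0156, Ltf at -0.298, Rpl4 at -0.149 and Gnb2l1 at -0.000749. Eef1a1 was at 0.00512 with DESeq2 size factors and 0.00566 in the DESeq2 Wald test, and Rpl4 at -0.0204 with no filter, -0.00307 with a filter on CPM and -0.00958 without mitochondrial, ribosomal and small RNA genes. Without single libraries Eef1a1 ran from -0.11 to 0.0223, Eef2 from -0.0345 to 0.0833, Ltf from -0.277 to 1.21 (without DOX OIL replicate 3), Rpl4 from -0.075 to 0.0506 and Ddx5 from -0.017 to 0.0647. The cause was not tested. Of 322 alternative values for the 14 interactions named, 44 ended a call and 0 changed sign. Genes with few counts are limited by depth, as the counting intervals of Syt6 and Areg show.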
